A study of Mus musculus with 17 samples.

Results

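The 10 immediate early genes, Fos, Fosb, Jun, Junb, Egr1, Egr2, Atf3, Ier2, Dusp1 and Nr4a1, were examined in distant MC38 tumors, that is, tumors that were not themselves frozen. They were taken by symbol from the authors' table of 21931 genes, each symbol matched 1 gene, and all 10 passed the filter on low counts that left 13005 genes for testing. MC38 is a mouse colon cancer cell line, listed as WT, which was implanted under the skin of both flanks of C57BL/6J mice aged 6 to 8 weeks. In the cryoablation group (8 tumors), the tumor of one side was frozen on day 7 in 2 cycles labelled as 20 s each, and the tumor of the other side was collected 5 days later. The freezing time is uncertain, as a longer one is described elsewhere. The control group (9 tumors) was collected at the same day without freezing, and no further handling of the controls is described. The study's text gives the sizes of the groups the other way round. Groups were taken from the labels of the samples, and every direction given rests on them. The labels do not tie a tumor to a mouse, so the p values measure the spread between these tumors. Each tumor is a mixture of cancer, stromal and immune cells, in which fewer cells of a type and less RNA per cell cannot be told apart.

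Immediate early genes are transcribed within minutes of a stimulus, before any new protein has been made, when kinase cascades such as the MAPK pathway activate transcription factors that are already present, among them SRF with its ELK partners and CREB. Their transcripts are short-lived, so their level reports recent signaling. Most of the encoded proteins are transcription factors. FOS and JUN proteins pair as AP-1, EGR proteins bind GC-rich sites, ATF3 is a stress-induced factor and NR4A1 is an orphan nuclear receptor, whereas DUSP1 is a phosphatase that switches MAP kinases off again.

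Total counts ranged from 13524899 to 17898672 per tumor. Cryoablation replicates 2, 4 and 5 stood apart from the other tumors on the first principal component, at -25.5, -31.5 and -31.3, against -9.52 to 16.7 in the others. The same 3 tumors had the strongest trend of expression over gene length. This trend, the slope of a tumor's log2 CPM (counts scaled to library size) on the log2 length of the gene, was computed from the tested genes other than the 10 and was negative where short genes were relatively high. It was -0.30, -0.27 and -0.39 log2 CPM per doubling of length in these 3 tumors and between -0.17 and 0.23 in the other tumors. Of 8 marker genes of colon epithelium, 5 passed the filter, and Cdx2, which defines intestinal epithelium, had 0 counts in all 17 tumors.

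The promoters of 3 of the genes that varied together are shown for what they contain. RefSeq windows (build GRCm38.p6) of 250 bases before and 50 after a transcription start were searched for 8 of the 10 genes. The chromosome of Egr1 was left out of the search, and no window was listed for Ier2. Searched on both strands were the CArG box bound by SRF, the CREB site TGACGTCA, the AP-1 site TGANTCA (N is any base) and TATAAA. The 250 bases before the start are printed for Fos (chr12:85473640-85473889, plus strand), 1 of the 5 listed starts of Egr2 (chr10:67537619-67537868, plus strand) and Dusp1 (chr17:26508473-26508722, minus strand), and capitals mark the matches, which did not overlap.
Fos: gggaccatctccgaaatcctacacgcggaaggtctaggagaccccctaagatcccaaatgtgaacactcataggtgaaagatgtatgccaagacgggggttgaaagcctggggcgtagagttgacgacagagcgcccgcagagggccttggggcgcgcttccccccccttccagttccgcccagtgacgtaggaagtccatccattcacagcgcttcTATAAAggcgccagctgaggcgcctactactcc
Egr2: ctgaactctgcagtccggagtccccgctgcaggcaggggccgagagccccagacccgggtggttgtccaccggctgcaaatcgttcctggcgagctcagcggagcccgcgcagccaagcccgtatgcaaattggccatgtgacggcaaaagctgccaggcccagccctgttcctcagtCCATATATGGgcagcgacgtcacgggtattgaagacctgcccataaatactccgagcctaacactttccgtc
Dusp1: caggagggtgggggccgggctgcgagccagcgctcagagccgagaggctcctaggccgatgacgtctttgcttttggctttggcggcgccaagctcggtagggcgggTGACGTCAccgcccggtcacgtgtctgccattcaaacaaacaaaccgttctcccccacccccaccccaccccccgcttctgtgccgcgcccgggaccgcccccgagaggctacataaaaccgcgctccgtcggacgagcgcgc
The Fos window held TATAAA 33 bases before the start. A CArG box lay 72 bases before this start of Egr2, and 4 of its 5 windows held one. Dusp1 had TGACGTCA 143 bases before its start. Among the 32851 windows searched, 1.63% held a CArG box, 1.79% TGACGTCA, 7.81% TGANTCA and 13.6% TATAAA. Of the 8 genes searched, 1 held a CArG box, 1 TGACGTCA, 0 TGANTCA and 2 TATAAA (Fos and Junb). These letters were thus not shared by the 8 genes within this window, and Egr1 and Ier2 were not examined.

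The genes differed widely in level. Compared per length, as FPKM (counts divided by gene length and library size), Jun was the highest with a mean of 110.6 ± 16.8 (SD, n = 17), followed by Junb with 89.9 ± 21.1 and Ier2 with 61.4 ± 23.1 FPKM. Atf3 (11.9 ± 4.21), Dusp1 (11.3 ± 3.44) and Egr1 (9.10 ± 3.39) formed a middle range. Nr4a1 (4.96 ± 1.44), Fos (4.71 ± 1.93) and Egr2 (2.95 ± 1.26) lay below it, and Fosb was the lowest at 0.683 ± 0.297 FPKM. The AP-1 partners were unequal, since the highest Fos value was 8.08 FPKM and the lowest of Junb, below any of Jun, 52.3 FPKM. In this order Ier2 and Atf3 were the only neighbours whose ranges did not overlap, with a lowest Ier2 of 38.3 against a highest Atf3 of 19.9 FPKM. Egr1 exceeded Nr4a1 and Egr2 exceeded Fosb in 17 of 17 tumors, although their ranges over tumors overlapped. Jun exceeded Junb in 15, Junb exceeded Ier2 in 14, Fos exceeded Egr2 in 16, and Atf3 exceeded Dusp1 in 9 of the 17 tumors.

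**Figure D1:**
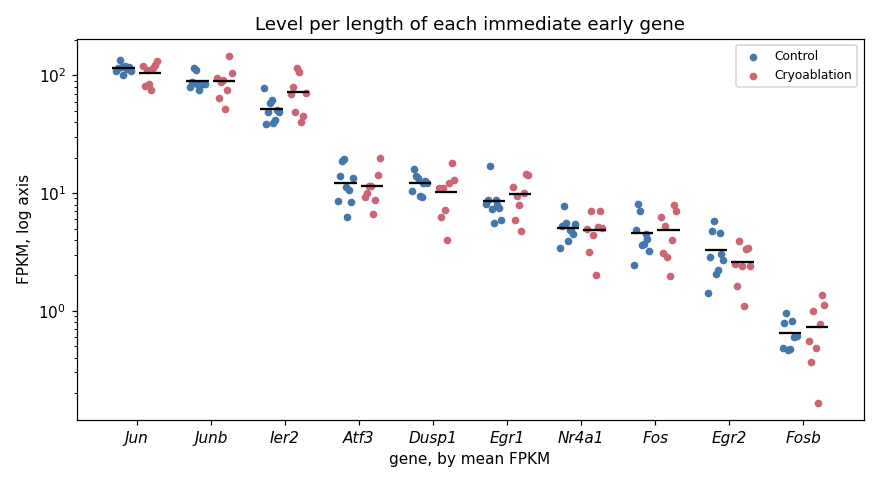
FPKM of each gene in each tumor on a log axis, with the genes in the order of their mean over 17 tumors. Points are tumors and bars are group means. Ier2 has its lowest tumor at 38.3 FPKM, above the highest of Atf3 at 19.9, and Fosb lies lowest at a mean of 0.683 FPKM.

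The comparison of the groups asked whether freezing one tumor changed these genes in the other. In edgeR's quasi-likelihood test, 0 of the 10 passed the threshold of the study (log2 fold change beyond 1 in size, unadjusted p under 0.05), which 0.492% of all genes tested did. With Benjamini-Hochberg adjustment over all 13005 genes, 0 of the 10 had an adjusted p under 0.05, 1 (Ier2) had an unadjusted p under 0.05, against a background of 4.91%, and DESeq2 and limma's voom gave 0 adjusted calls too. The fold changes of the cryoablation over the control group were above 0 for 6 genes and below 0 for 4, with a median of 0.04 on the log2 scale beside -0.01 for all genes tested. The ranges of the groups overlapped for all 10 genes, a description only, as the share over all genes tested was not computed. For the 9 genes other than Ier2, the 95% intervals of the log2 fold change lay between -0.77 (Egr2) and 0.79 (Fosb). They were narrowest for Jun (-0.22 to 0.12), Junb (-0.20 to 0.36) and Nr4a1 (-0.34 to 0.35).

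**Figure D2:**
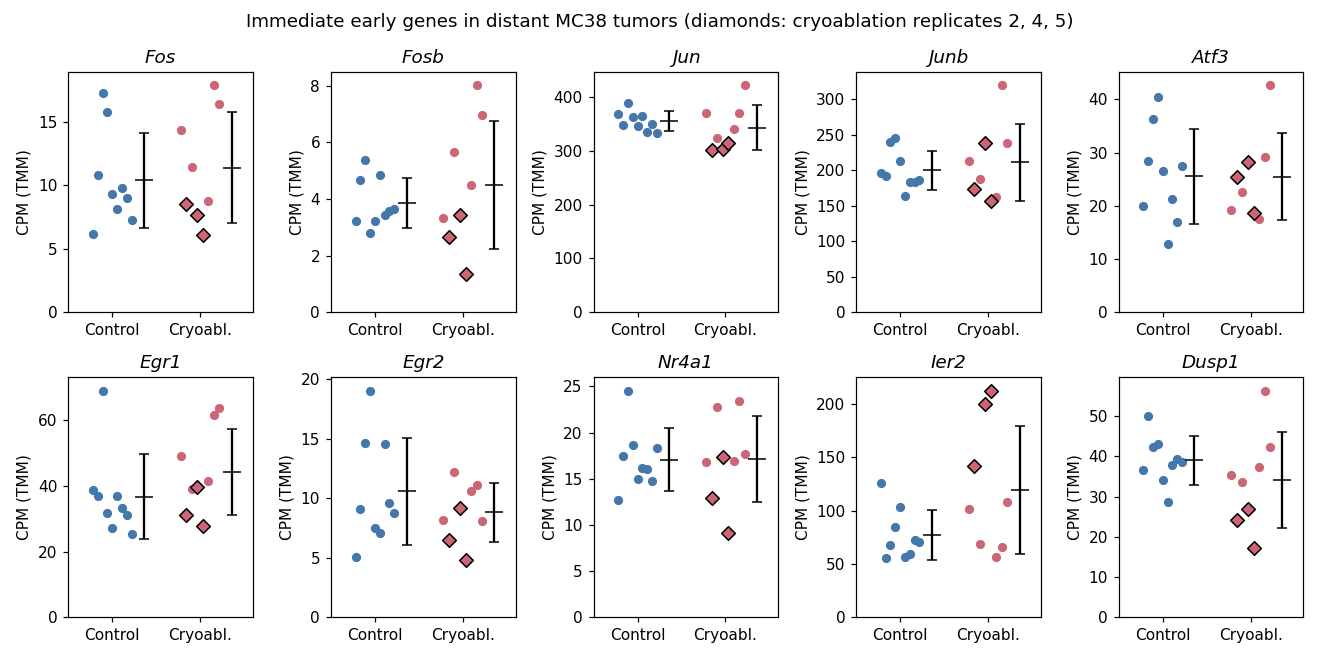
TMM-normalized CPM of each gene in each of the 9 control and 8 cryoablation tumors, on linear axes that start at 0, with the mean and SD of the group beside the points. Diamonds are cryoablation replicates 2, 4 and 5, which hold the 3 lowest Dusp1 and the 3 highest Ier2 values (142, 199.9 and 212 CPM).

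Among the AP-1 genes, Fos (ENSMUSG00000021250, chromosome 12, 85520664 to 85524047 in the authors' table) encodes the partner that gives AP-1 much of its activity. It had 6.12, 9.27 and 17.2 CPM (lowest, median and highest) in the control group and 6.08, 10.1 and 17.8 CPM in the cryoablation group. The spreads covered the same interval in both groups. The fold change was 0.13 on the log2 scale (standard error 0.24; adjusted p = 0.838 in edgeR). A permutation test over all splits of the tumors, exact and two-sided as all those that follow, gave p = 0.656 on log2 CPM. Fosb (ENSMUSG00000003545, chromosome 7, 19036621 to 19043976), a relative of Fos, had 2.78, 3.59 and 5.37 CPM in the controls and 1.35, 3.97 and 8.02 CPM after cryoablation. Both ends of the Fosb range lay in the cryoablation group, with 3 tumors above and 2 below all controls. Its log2 fold change was 0.22 (standard error 0.27; adjusted p = 0.788; exact permutation p = 0.827).

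Jun (ENSMUSG00000052684, chromosome 4, 94937271 to 94940459), the FOS partner, was the steadiest of the genes. It had 333, 351 and 390.1 CPM in the controls and 301, 333 and 422 CPM after cryoablation, and 4 cryoablation tumors, among them replicates 2, 4 and 5, lay below all controls. Its log2 fold change was -0.05 (standard error 0.08; adjusted p = 0.823; exact permutation p = 0.374). Junb (ENSMUSG00000052837, chromosome 8, 85701113 to 85705347), a JUN relative, had 164, 192 and 245 CPM in the controls and 157, 199.9 and 319 CPM after cryoablation, a log2 fold change of 0.08 (standard error 0.13; adjusted p = 0.832; exact permutation p = 0.718). The highest Junb value was that of cryoablation replicate 7, and without this tumor the log2 fold change was -0.04. Junb overlaps Prdx2 on the other strand in the authors' table, and since a stranded count is not described, reads of the pair cannot be told apart. Atf3 (ENSMUSG00000026628, chromosome 1, 190902493 to 190950236), a partner of JUN in stressed cells, had 12.8, 26.5 and 40.5 CPM in the controls and 17.6, 24.0 and 42.6 CPM after cryoablation (log2 fold change -0.01, standard error 0.22; adjusted p = 0.994; exact permutation p = 0.940).

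Of the zinc finger factors, Egr1 (ENSMUSG00000038418) had 25.4, 33.4 and 69.0 CPM in the controls and 27.8, 40.6 and 63.7 CPM after cryoablation. The highest value was that of control replicate 3, and the control median was exceeded in 6 of 8 cryoablation tumors. The difference was 0.27 on the log2 scale (standard error 0.20; adjusted p = 0.734; exact permutation p = 0.201), and without control replicate 3 it was 0.43 (exact permutation p = 0.0362 on a log2 CPM difference of 0.39; edgeR adjusted p = 0.890). As this tumor held the highest value, a comparison without it is not independent of the outcome. Egr2 (ENSMUSG00000037868, chromosome 10, 67371305 to 67378018) had 5.08, 9.13 and 19.0 CPM in the controls and 4.82, 8.71 and 12.2 CPM after cryoablation. The 3 highest Egr2 values were those of control replicates 3, 4 and 7. Egr2 differed by -0.26 on the log2 scale (standard error 0.24; adjusted p = 0.760; exact permutation p = 0.435). Nr4a1 (ENSMUSG00000023034, chromosome 15, 101152150 to 101172676), which is also induced by antigen receptor signaling in T cells, had 12.7, 16.1 and 24.5 CPM and 9.17, 17.1 and 23.4 CPM. Its log2 fold change was 0.01 (standard error 0.16; adjusted p = 0.990; exact permutation p = 0.892).

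Dusp1 (ENSMUSG00000024190, chromosome 17, 26724564 to 26781102) had 28.7, 38.5 and 50.05 CPM in the controls and 17.2, 34.5 and 56.3 CPM after cryoablation. Its 3 lowest values were those of cryoablation replicates 5, 2 and 4, at 17.2, 24.2 and 27.0 CPM. The difference was -0.19 on the log2 scale (standard error 0.18; adjusted p = 0.762; exact permutation p = 0.207), and 0.06 without these 3 tumors. Without cryoablation replicate 7, the highest for Dusp1, it was -0.33 (exact permutation p = 0.0407 on a log2 CPM difference of -0.37). Both comparisons leave out an end of the range and are not independent of the outcome. Dusp1 overlaps Ergic1 on the other strand in the authors' table, with the same limit as for Junb.

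Ier2 (ENSMUSG00000053560, chromosome 8, 85387960 to 85389483), a small nuclear protein that takes part in transcription, differed from the others. It had 55.3, 71.0 and 126 CPM in the controls and 56.8, 105 and 212 CPM after cryoablation. Cryoablation replicates 2, 4 and 5 held the 3 highest values, 142, 199.9 and 212 CPM, all above the controls, whereas the other 5 cryoablation tumors lay between 56.8 and 108 CPM. The log2 fold change was 0.63 (standard error 0.26, 95% interval 0.08 to 1.17), with an adjusted p of 0.728 in edgeR and p = 0.0863 in the exact permutation test, and 5 of 8 tumors were above the control median. Without those 3 tumors the means were 77.4 ± 23.7 CPM (SD, n = 9) and 80.2 ± 23.1 CPM (SD, n = 5), and the log2 fold change was 0.04 (exact permutation p = 0.816). With the length trend as a term it was 0.23 (edgeR adjusted p = 0.956), and 0.23 (edgeR adjusted p = 0.910) with this term and without the 3 tumors, with an unadjusted p under 0.05 in both.

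**Figure D3:**
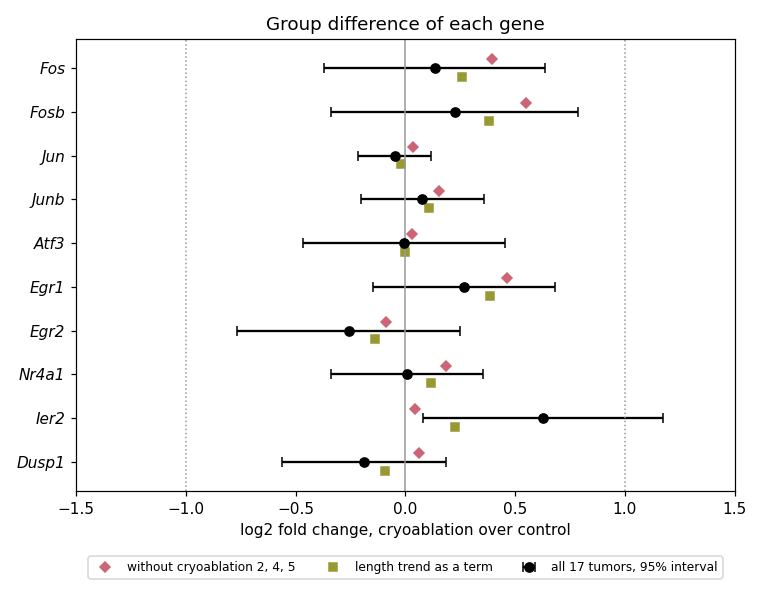
Log2 fold change of each gene, cryoablation over control. Black points with bars are edgeR's values over 17 tumors with 95% intervals, diamonds leave out cryoablation replicates 2, 4 and 5, squares include the length trend as a term, and dotted lines mark the study's fold threshold. Ier2 moved from 0.63 to 0.04 without the 3 tumors, and Fosb from 0.22 to 0.55.

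Leaving out the 3 tumors moved Ier2 towards 0, but Fosb, Egr1, Fos, Nr4a1 and Junb further above 0. The log2 fold change of Fosb became 0.55 and that of Egr1 0.46 (edgeR adjusted p = 0.941 for both), with exact permutation p values of 0.0335 and 0.0395. Fos had 0.39 (exact permutation p = 0.118), Nr4a1 0.19 and Junb 0.15. Under limma's voom with sample quality weights, the log2 fold change was 0.45 for Fos (adjusted p = 0.472) and 0.53 for Egr1 (adjusted p = 0.466). Of the 3 tumors left out, cryoablation replicate 5 was the lowest of all for Fos, Fosb, Egr2, Junb, Dusp1 and Nr4a1, so that a comparison without them is not independent of the outcome. In all alternatives run, 0 of the 10 genes passed the study's threshold.

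The genes differed in how much they varied from tumor to tumor. The biological coefficient of variation from edgeR was 0.37 for Ier2 and Fosb, 0.35 for Fos and Egr2, 0.32 for Atf3, 0.29 for Egr1, 0.26 for Dusp1, 0.24 for Nr4a1 and 0.20 for Junb, beside a median of 0.24 over the genes tested. Jun had 0.14, which only 4.91% of the genes tested did not exceed. The highest and lowest tumor differed 3.75-fold in Egr2 among the controls and 5.93-fold in Fosb among the cryoablation tumors, against 1.17-fold and 1.40-fold in Jun. The SD of log2 CPM was larger in the cryoablation group for 8 of the 10 genes, and for 5 of 10 when replicates 2, 4 and 5 were left out.

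Tumors that were high in one gene tended to be high in the others. Control replicate 3 was among the 4 highest tumors for all 9 genes other than Ier2, cryoablation replicate 7 for 8 and control replicate 4 and cryoablation replicate 8 for 6 each. Cryoablation replicate 5 was among the 4 lowest for 9 of 9, cryoablation replicate 2 for 6 and control replicates 1 and 6 for 4 each. Both ends thus held tumors of both groups. With the group means removed, the median Pearson correlation over the 45 pairs of genes was 0.56, and it was 0.61 over the 36 pairs without Ier2, all of which were above 0. Without cryoablation replicates 2, 4 and 5 these pairs had a median of 0.45, and 35 of the 36 were above 0.

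For Fos, 9 relations were tested with 100000 permutations within the groups and Benjamini-Hochberg adjustment over the 9. The correlation across the 17 tumors was 0.74 with Nr4a1 (Spearman 0.69; adjusted permutation p = 0.00378 and 0.0117) and 0.74 with Dusp1 (Spearman 0.75; adjusted permutation p = 0.00378 and 0.0117). It was 0.73 with Junb, 0.72 with Egr1, 0.70 with Egr2, 0.68 with Jun, 0.62 with Fosb and 0.61 with Atf3 (adjusted permutation p between 0.00412 and 0.0125), with Spearman correlations of 0.64, 0.60, 0.67, 0.65, 0.51 and 0.57 (adjusted permutation p between 0.0117 and 0.0606, the highest for Fosb). Over the 12995 tested genes outside the group, the correlation with Fos had a median of 0.08 and ran from -0.89 to 0.90. Correlations of this size were thus not particular to the group, and the fibroblast marker Pdgfra, for example, had 0.71. Without the 2 tumors farthest from the median of Fos, the 8 correlations lay between 0.48 (Fosb) and 0.71 (Dusp1), and without cryoablation replicates 2, 4 and 5 between 0.32 (Fosb) and 0.77 (Junb). The unadjusted permutation p rose above 0.05 for Fosb in both settings (0.111 and 0.261), so that relation held in neither. It also rose above 0.05 for Egr1 without the 2 farthest tumors (0.0502 at a correlation of 0.56) and for Jun without the 3 tumors (0.0597 at 0.52). In the other setting it stayed under 0.05 for both, at 0.03 for Egr1 (correlation 0.61) and 0.0255 for Jun (0.61). With the length trend removed over all 17 tumors, the 8 correlations lay between 0.33 (Fosb, permutation p = 0.192) and 0.76 (Atf3). Among these 8 genes, which leave out Ier2, the correlation in the controls alone was highest with Egr2 (0.85) and lowest with Fosb (0.22). In the cryoablation group it was highest with Egr1 (0.92) and lowest with Atf3 (0.52). Ier2 had -0.28 in the controls and -0.60 in the cryoablation group.

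**Figure D4:**
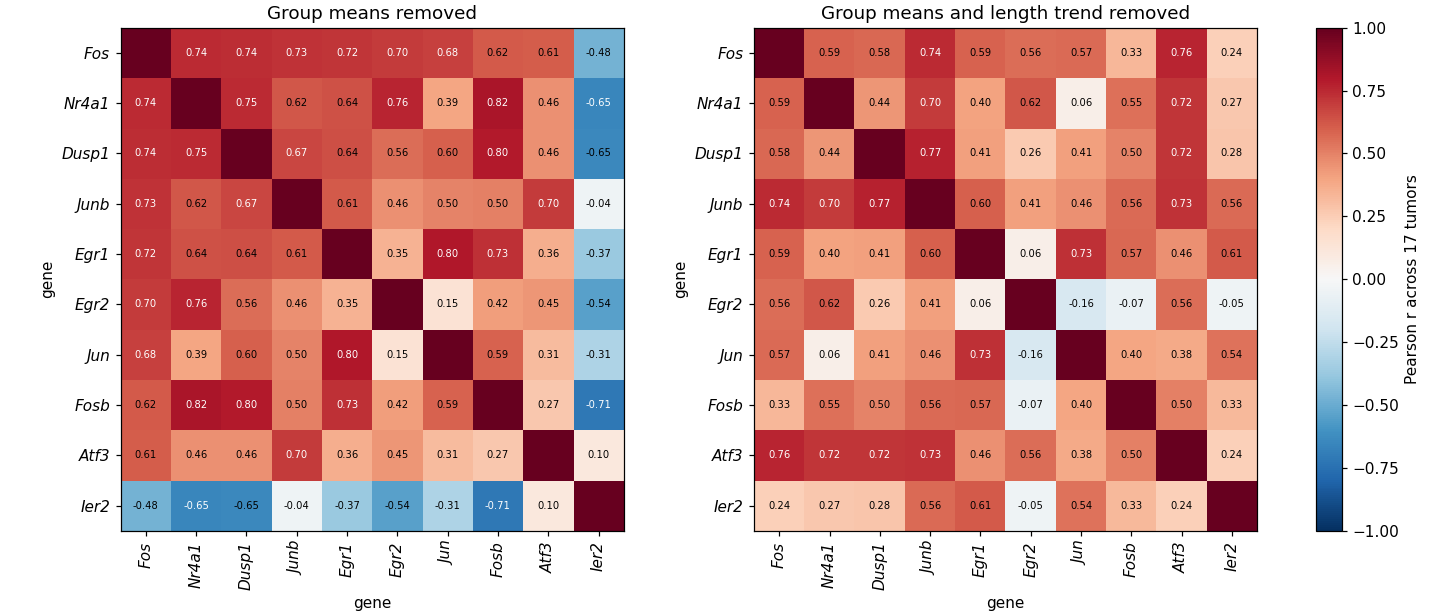
Pearson correlation of log2 CPM between each pair of genes across 17 tumors, with the group means removed (left) and with the group means and each tumor's length trend removed (right). Red is above and blue below 0. Ier2 is below 0 with 8 of the 9 others on the left (0.10 with Atf3), and its median with them is -0.48 on the left and 0.28 on the right.

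Over the 17 tumors Ier2 ran against the group, with a median correlation of -0.48 with the other 9 genes. This rested on cryoablation replicates 2, 4 and 5, without which the median was -0.02, 4 of the 9 correlations were above 0 and they ran from -0.45 (Nr4a1) to 0.45 (Jun). The median was 0.28 once the length trend was removed. Its correlation with Fos was -0.48 (Spearman -0.48; adjusted permutation p = 0.0760 and 0.0727), -0.41 without the 2 farthest tumors, -0.02 without the 3 cryoablation tumors (permutation p = 0.947) and 0.24 with the length trend removed. Ier2 followed the length trend closely, with a correlation of -0.95 (Spearman -0.92; adjusted permutation p = 0.0001 and 0.0004 over the 10 genes, the unadjusted 1e-05 of the former being the smallest that the permutations can give). It was -0.95 without the 2 tumors farthest from the median trend, -0.92 without cryoablation replicates 2, 4 and 5, -0.91 within the controls and -0.96 within the cryoablation group. Ier2 is the shortest of the 10 genes, with a listed length of 1524 bases, and Fosb, the longest with 6243 bases, had the highest correlation with the trend, 0.81 (Spearman 0.86; adjusted permutation p = 0.0027 and 0.00145; 0.66 without the 2 farthest tumors and 0.57 without the 3). The correlation was 0.74 for Nr4a1 and Dusp1 (Spearman 0.59 and 0.68; adjusted permutation p = 0.0042 and 0.0076, and 0.0373 and 0.0341 for Spearman), and 0.52 and 0.51 without the 2 farthest tumors. That of Dusp1 was 0.28 without cryoablation replicates 2, 4 and 5 and 0.19 within the controls, while that of Nr4a1 was 0.55 in both. It was 0.56 for Fos, Egr1 and Egr2 (Spearman 0.55, 0.61 and 0.44; adjusted permutation p between 0.0244 and 0.0430, and between 0.0373 and 0.0820 for Spearman), and these values rested on the 2 farthest tumors, without which they were 0.38, 0.32 and 0.35. Jun (0.48), Junb (0.22) and Atf3 (-0.03) had adjusted permutation p values of 0.150, 0.538 and 0.902. Over all tested genes, the median was -0.78 for the 1381 genes of 1000 to 2000 bases and 0.53 for the 7381 genes of at least 4000 bases, and 5.93% of the genes tested had a value at or below that of Ier2.

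**Figure D5:**
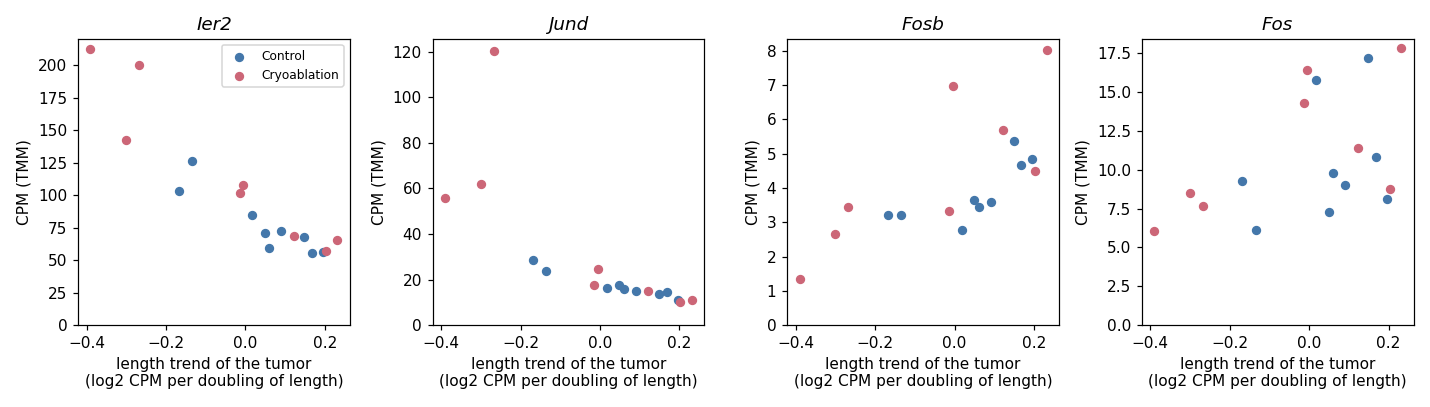
CPM of Ier2, Jund, Fosb and Fos in each tumor (vertical axes, starting at 0) against the tumor's length trend, the slope of log2 CPM on log2 gene length (horizontal axes). Ier2 and Jund fall along the trend in both groups (correlations of -0.95 and -0.91 on log2 CPM), whereas Fosb rises (0.81) and Fos rises more loosely (0.56).

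The 3 tumors at the low end of the trend also differed in sums over markers of other cells, from lists of 8 genes of which all or 7 were in the table. The epidermis, macrophage and fibroblast sums overlapped those of the controls. The summed level of adipocyte markers was 180 to 239 CPM in them against 38.9 to 139.6 CPM in the controls. It was 89.8 to 137 against 25.5 to 75.8 CPM for colon epithelium, 91.6 to 175 against 6.16 to 74.7 CPM for erythroid cells (Slc4a1 had at most 3 counts in every tumor), 409 to 665 against 182 to 444 CPM for epidermis (Lor and Dsg1a at most 3 counts), 2482 to 3444 against 967 to 2700 CPM for macrophages, a sum made up mostly of C1qa, C1qb and C1qc, and 5343 to 8547 against 7816 to 13960 CPM for fibroblasts. In the whole cryoablation group these sums ran from 44.0 to 239, 20.1 to 137, 25.1 to 175, 205 to 665, 742 to 3444 and 5343 to 10400 CPM. Between the groups, 5 of 8 macrophage markers had fold changes below 0 (median -0.12 on the log2 scale), from -0.69 for Adgre1 to 0.52 for C1qa, and 0 passed the study's threshold. Of the genes tested, 3 of 4 erythroid and 2 of 7 adipocyte markers were past the study's threshold, all higher after cryoablation. Over all genes tested, 0.354% were past it in this direction. Without cryoablation replicates 2, 4 and 5, those erythroid and adipocyte markers had log2 fold changes from 0.44 (Hba-a1) to 0.97 (Hbb-bt). For neutrophils (2 of 4 markers past the threshold, also higher, and Ly6g at most 3 counts), T cells, endothelium and skeletal muscle, the sums of the 3 tumors lay within the range of the controls. With the length trend as a term, the log2 fold change between the groups went from 2.01 to -0.01 for Krt18 and from 0.52 to -0.16 for C1qa. It went from 1.745 to 1.04 for Hba-a1 and from -0.58 to -0.56 for Col1a1. The part of the length trend in these sums was not tested. Nor was the part of these cells in the levels of Ier2 and the other genes.

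Other immediate early genes were read from lists of 19 further transcription factors and 23 other proteins. Of the factors 18 were tested, of which 1 passed the study's threshold, with 11 fold changes above and 7 below 0 and a median of 0.04. That gene was Jund (ENSMUSG00000071076, chromosome 8, 71151599 to 71153265), the JUN relative that is less dependent on stimuli. Jund had 10.8, 15.8 and 28.5 CPM in the controls and 9.96, 21.1 and 120.2 CPM after cryoablation, of which 62.0, 120.2 and 55.7 CPM were those of cryoablation replicates 2, 4 and 5. The other 5 cryoablation tumors lay at or below 24.5 CPM, within the control range apart from the lowest. The groups differed by 1.19 on the log2 scale (standard error 0.43; adjusted p = 0.728 in edgeR). The value was -0.15 without the 3 tumors, 0.30 with the length trend as a term and 0.31 under limma's voom. Like Ier2, Jund is short (1667 bases), and it followed the length trend (-0.91) and Ier2 (0.90). Cebpb, a factor of acute-phase responses, had 0.65 and was past the threshold only with a replicate block (1.01), whereas Mafk had -0.30 and Fosl1, another FOS relative, -0.28, neither past the threshold.

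All 23 other proteins were tested and 0 passed the threshold, with 12 fold changes above and 11 below 0 and a median of 0.02. The highest were 0.74 for Ptgs2 (standard error 0.58), the inducible prostaglandin synthase, which varied from 29.0 ± 13.1 to 48.4 ± 82.7 CPM (SD, n = 9 and n = 8) and had 1.23 without cryoablation replicates 2, 4 and 5, and 0.67 for Phlda1 (standard error 0.28). The lowest were -0.29 for Ccn2, a matrix protein and YAP target, and -0.23 for the kinase Pim1. Phlda1 and Ier5l (0.65), the latter chosen after its value was seen, had an unadjusted p under 0.05, fell along the length trend (-0.83 and -0.94) and were at 0.02 and 0.07 without cryoablation replicates 2, 4 and 5.

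Upstream of these genes, 22 kinases, growth factors and factors such as Srf, Elk1 and Creb1 were tested, of which 0 passed the threshold (8 above and 14 below 0, median -0.06). The epidermal growth factor receptor ligands Areg (1.16, standard error 0.64) and Ereg (0.69, standard error 0.43) were highest, and their receptor Egfr (-0.38, standard error 0.32) and Elk1 (-0.25, standard error 0.19) lowest. Without cryoablation replicates 2, 4 and 5 Areg had -0.39 and Ereg 1.13. Of 16 genes of negative feedback, 0 passed (8 above and 8 below 0, median 0.0025). Among them the MAP kinase phosphatases Dusp10 (0.23, standard error 0.09) and Dusp5 (0.20, standard error 0.13) were highest, and Zfp36l2 (-0.19) and Nab1 (-0.16) lowest. Of 10 heat shock genes, 0 passed (5 above and 5 below 0, median 0.04), from -0.13 for Hspd1 and -0.12 for Dnajb1 to 0.34 for Hspb1 and 0.42 for Hspe1. The number with an adjusted p under 0.05 was 0 in each list in edgeR, and with an unadjusted p under 0.05 it was 0, 1 (Dusp10) and 0.

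The 10 genes outside the group whose pattern was most like it were chosen by their mean correlation with the 10 genes across the 17 tumors, group means removed, among 12957 genes with a mean of at least 10 counts. They were Btg1 and Sgk1 (0.58 each), Nfkbia (0.58), Gem (0.57), Fgf7 (0.56), Bcl6 (0.56), Bhlhe40 (0.55), St8sia6 (0.55), Trib1 (0.55) and Pim3 (0.54), beside a median of 0.03 over the genes ranked. Bhlhe40 and Trib1 were on the lists of other immediate early genes, and Nfkbia encodes the inhibitor of NF-kappaB. Of the 10, 4 were among the 10 highest without cryoablation replicates 2, 4 and 5, and 4 with the length trend removed. Their log2 fold changes lay between -0.35 (St8sia6) and 0.16 (Gem). Btg1 had 195, 269 and 369.6 CPM in the controls and 140.0, 274 and 361 CPM after cryoablation, with overlapping ranges.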

How the data were processed

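RNA of 17 distant MC38 tumors (9 control, 8 cryoablation) was sequenced on a NovaSeq platform from libraries made with an mRNA-seq kit. The authors deposited raw read counts per gene and FPKM, which equal the count divided by listed length and total count. The aligner and counter are not given in the sources used here. The submitters' processing notes name GRCm38/mm10, but 0 of the 10 genes start within 1000 bases of their RefSeq GRCm38.p6 start, so the table's positions carry no build. All columns were matched to samples by name.

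Counts were tested with edgeR 4.0.16 in R 4.3.3 (TMM, filterByExpr by group, quasi-likelihood F test, group as the only term), with Benjamini-Hochberg adjustment over the 13005 genes tested. CPM are TMM-normalized, log2 CPM used a prior count of 2, and standard errors are the log2 fold change over the square root of F. Exact permutation tests covered all 24310 splits of 17 tumors into 9 and 8 (smallest p 4.11e-05). Correlations used 100000 permutations within groups, and 10000 in their alternatives. DESeq2 1.42.0, limma 3.58.1 and other alternatives are in the closing section. Where no read is counted, up to 3 counts remain possible, or 0.168 to 0.222 CPM at these totals (counting error only). On simulated counts with 200 genes changed by a log2 fold change of 2, the test run on 12947 genes recovered 100% of them, with 4.31% of its calls false.

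The 10 genes and all lists (other immediate early factors and proteins, upstream, feedback and heat shock genes, and cell markers, written from general knowledge) were chosen with earlier results of these data known. Genes named are the 10, each list's genes past the study's threshold and its 2 highest and 2 lowest, and the 10 genes most like the group; exceptions are marked. The replicate numbers were not used to pair tumors.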

Additional observations from a re-analysis of the deposited data

Results flagged for a closer look

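The 10 genes were examined in each group, 20 groups of values in all, for a tumor lying far outside the rest, and chance alone gives about 1 such case in 20 groups (Dixon's test at its 95% critical value). The case found was Egr1 in control replicate 3, with a log2 CPM of 6.11 (69.0 CPM), apart from the other controls at 25.4 to 38.8 CPM. The same tumor was the highest control for Fos, Fosb, Jun and Nr4a1 as well, at 17.2, 5.37, 390.1 and 24.5 CPM.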

How the results depend on the processing

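The number of the 10 genes past the study's threshold was 0 under all alternatives run: edgeR's exact test, DESeq2, limma's voom, upper-quartile and DESeq2 size factors, no filter, a mean of at least 10 counts, the replicate block, the length trend term and leaving out tumors. The median log2 fold change of the 10 genes ranged from 0.02 with upper quartiles to 0.17 with limma's voom, and from -0.04 to 0.11 with 1 tumor left out. The median pair correlation was 0.41 without cryoablation replicates 2, 4 and 5, 0.43 without the tumors farthest in Fos, 0.50 with the length trend removed, and 0.45 to 0.60 with 1 tumor left out. The count of other immediate early genes past the threshold, 1, was 0 under limma's voom, with the length trend term and without those 3 tumors, and 0 to 1 with 1 tumor left out (0 without cryoablation replicate 4).

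The sign turned for some values that had no p under 0.05 in the main tests, and the cause was not tested. Log2 fold changes turned for Jun (0.073 with limma's voom, 0.034 without the 3 tumors, 0.045 with the length trend term besides), Dusp1 (0.064 and 0.022 in the latter settings), Nr4a1 (-0.0099 with upper quartiles, -0.0028 with no filter) and Atf3 (0.00064 with DESeq2, 0.00080 with its size factors, 0.19 with limma's voom, 0.031 without the 3 tumors, 0.067 with the trend besides). With 1 tumor left out they ran from -0.038 to 0.13 for Junb, -0.15 to 0.10 for Atf3 and -0.075 to 0.098 for Nr4a1. Log2 CPM differences turned without the 3 tumors for Jun (0.037), Egr2 (0.012), Dusp1 (0.061) and Nr4a1 (0.20), and ran from -0.075 to 0.28 for Fosb, -0.040 to 0.11 for Junb, -0.10 to 0.11 for Atf3 and -0.10 to 0.10 for Nr4a1 with 1 tumor left out. The correlation of Ier2 with Fos turned to 0.24 with the length trend removed. The unadjusted p of Ier2 was under 0.05 in 13 of the 17 fits without 1 tumor, with log2 fold changes of 0.46 to 0.74, and not without control replicates 2 or 6 or cryoablation replicates 4 or 5.

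Replicate numbers 1 to 8 occur in both groups. Same-numbered tumors had correlations of -0.51 to 0.64 in their deviations from the group means, 4 of 8 over 0.1, and 4 of 16 tumors correlated best with their own number, so they were treated as unpaired. With a replicate block, which omits control replicate 9, the log2 fold change of Ier2 was 0.50, that of Atf3 0.028 and that of Nr4a1 -0.0097, the calls past the threshold over all genes were 33 in place of 64, and the immediate early gene called was Cebpb (1.01) in place of Jund (0.69). Over all genes the calls also numbered 432 with no filter, 37 with the length trend term and 34 (without cryoablation replicate 5) to 165 (without cryoablation replicate 3) with 1 tumor left out. The length trend as a term in correlations, and that term together with leaving out the 3 tumors, were chosen after seeing the data. What limits each gene is the interval given for it, and the part of sequencing depth in it was not tested.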
